A study of Rattus norvegicus with 6 samples.

Results

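Genes for retinoic acid synthesis, binding and reception were examined in rat hippocampal RNA after 6 weeks of treadmill running. The set comprised 9 genes: Aldh1a1 and Aldh1a2 (synthesis), Crabp1 and Crabp2 (binding inside the cell), Rbp4 (carriage of retinol in plasma), Rara and Rarb (retinoic acid receptors), and Rxra and Rxrg (retinoid X receptors). Their probes were found by gene name, with the suffixes _predicted and _mapped removed, which gave 11 of the 41012 probes on the array. The genes were chosen by values of these arrays as well as by function, so the ratios that follow are a description and carry no test of the set.

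Retinol travels in blood bound to Rbp4 and transthyretin, is oxidized to retinaldehyde and then, by the Aldh1a enzymes, to retinoic acid. The Crabp proteins carry retinoic acid within the cell, and receptors of the Rar and Rxr families bind DNA as pairs and change transcription when it binds. In the adult brain, retinoic acid is known for roles in hippocampal plasticity and neurogenesis, and the meninges are a known site of Aldh1a2 and Crabp2 expression.

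RNA was compared between 3 groups of male Wistar rats, which were 11 weeks old and weighed 220 to 270 g before rearing and training. CONT rats rested on the treadmill, ME rats ran at 15 m/min (mild, below the lactate threshold) and IE rats at 40 m/min (intense, above it), for 60 min a day, 5 times a week. Some IE rats received foot shocks to keep them running, whereas ME rats received none after habituation, so speed and shock cannot be told apart in IE. Habituation was counted within the 6 weeks and took more of them in IE, and IE rats that refused to run were excluded by the study. RNA of 5 rats was pooled per group, and every pair of pools (ME vs CONT, IE vs CONT, then IE vs ME) was measured on 2 2-color arrays with the dyes swapped. In the sample records tissue was taken 24 or 36 h after the last session, and the study's methods give a longer interval.

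Both arrays of a dye swap were made from 1 pair of pools, so a comparison counts as 1 replicate, the SD given is between arrays, and rats could not be tested against each other. Readings named by group are repeated readings of 1 pool. The share of all probes whose readings do not overlap is not given, so nothing is read from an overlap or its absence. A p-value below is that of the scanner software, which compares 2 pools on 1 array. With the fold and p limits of the study's methods, a probe was called when the Cy5/Cy3 ratio was at least 1.5 on 1 array and at most 0.75 on the swapped array, with p below 0.01 on both. That both arrays of a swap had to pass is a choice made here, and it is stricter than a limit on the mean fold, which without a p limit would call 6.28, 5.41 and 8.80% of all probes for ME and IE against CONT and for IE vs ME. The 4 arrays against CONT lie on slide 1 and the 2 IE vs ME arrays on slide 2, and the CONT pool is common to both comparisons on slide 1. On these arrays 66.5 to 74.4% of spots were well above background in both channels and none was saturated. All 9 probes of the hippocampal marker list (8 of 10 names) had signal in the arrays against CONT and none was called. Of all probes, 0.122% were called in ME vs CONT and 0.0293% in IE vs CONT, so nothing is read from that count.

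The probes of Aldh1a2, Crabp2 and Rbp4 carry the pattern described here, and the first 30 bases of each are given so that the measured transcript can be identified. The 60-base probes match rn3 chr8:75790115-75790174 (plus strand, Aldh1a2, NM_053896), chr2:179984104-179984163 (plus strand, Crabp2, NM_017244) and chr1:242637284-242637343 (minus strand, Rbp4, XM_215285). An exon annotation of that build was not used here.
Aldh1a2 probe A_44_P317912, 5′ to 3′: cccacagtatagaatgtgaaaaggaagatt
Crabp2 probe A_44_P129749, 5′ to 3′: ccagagaggggcagactaccaaagctcaga
Rbp4 probe A_44_P264611, 5′ to 3′: ctcccttctctaggtggacattaaaaccat

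Since Aldh1a2 and Crabp2 were both higher in ME, the 250 bases upstream of their starts are shown (RefSeq, GRCr8), with any retinoic acid receptor core motif to be marked in capitals.
Aldh1a2, chr8:80758391-80758640, plus strand: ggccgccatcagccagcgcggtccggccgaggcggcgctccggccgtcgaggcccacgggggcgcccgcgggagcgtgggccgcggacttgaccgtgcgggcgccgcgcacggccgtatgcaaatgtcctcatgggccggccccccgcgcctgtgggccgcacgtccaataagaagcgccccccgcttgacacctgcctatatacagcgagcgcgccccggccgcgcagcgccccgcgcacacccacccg
Crabp2, chr2:175714612-175714861, plus strand: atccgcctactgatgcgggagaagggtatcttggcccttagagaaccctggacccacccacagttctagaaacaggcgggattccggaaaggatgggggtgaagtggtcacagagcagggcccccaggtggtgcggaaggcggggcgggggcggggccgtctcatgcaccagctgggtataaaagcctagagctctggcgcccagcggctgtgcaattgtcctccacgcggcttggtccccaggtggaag
Motifs were searched on both strands as AGGTCA (in 14.06% of all rat promoter windows of this length), GGTTCA (9.77%), GGGTCA (11.86%) and AGTTCA (12.22%), of which a position can match only 1. None of them was in either window. Of the 9 genes, all found in the RefSeq table, 3 held 1 such motif (Aldh1a1, Rara and Rarb, each GGGTCA), and 39.11% of all 33469 windows held at least 1 of the 4 motifs. The windows of Aldh1a2 and Crabp2 held 41 and 13 CpG dinucleotides, against a median of 5.0 over all windows. These are letter matches and say nothing of binding.

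In ME, 2 of the 11 probes were called, Aldh1a2 and Crabp2, both higher than in CONT, whereas 0.122% of all probes were called in that comparison. No probe of the set was called in IE vs CONT, where 0.0293% of all probes were. In the direct comparison of IE with ME, 1 was called, Crabp2, which was lower in IE, against 0.0731% of all probes. The median log2 ratio of the 11 probes was 0.03 in ME vs CONT, -0.02 in IE vs CONT and -0.10 in IE vs ME, while over all probes well above background it was -0.0025, 0.0018 and 0.0028. Since the genes were chosen with these ratios known, nothing is read from the difference between these shares.

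Aldh1a2 encodes the retinaldehyde dehydrogenase that makes most embryonic retinoic acid. On slide 1 its processed signal (background-subtracted, dye-normalized, linear) was 51.9, 60.7, 61.1 and 74.3 in the 4 readings of CONT, 126 and 129 in ME, and 52.1 and 58.2 in IE. Both ME readings lay above every CONT reading, and the IE readings lay within the CONT range. The log2 ratio of ME to CONT was 0.79 on 1 array (p of 0.000426) and 1.05 on the other (p of 1.02e-05), a mean of 0.92 ± 0.18 (SD, 2 arrays) or 1.90-fold. It ranked 24 from the top among 28897 probes well above background. The mean ratio of IE to CONT was -0.03 ± 0.28.

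On slide 2, Aldh1a2 read 57.8 and 65.8 in ME and 32.8 and 48.3 in IE, again without overlap. Here the arrays differed in size: the log2 ratio of IE to ME was -1.004 on 1 array (p of 0.000851) and -0.26 on the other (p of 0.392), so the probe was not called, with a mean of -0.63 ± 0.53. The difference of the ratios measured against CONT on slide 1, IE minus ME, was -0.95 (SE 0.24 from the arrays). The probe is dim, with 1.62 to 3.13 times the local background over its 12 readings. With normexp background correction and loess the ratio of ME to CONT was 0.31, and with no background subtraction 0.45, and neither setting called it. The ratio of IE to ME was -0.18 and -0.14 under these 2 settings.

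**Figure D1:**
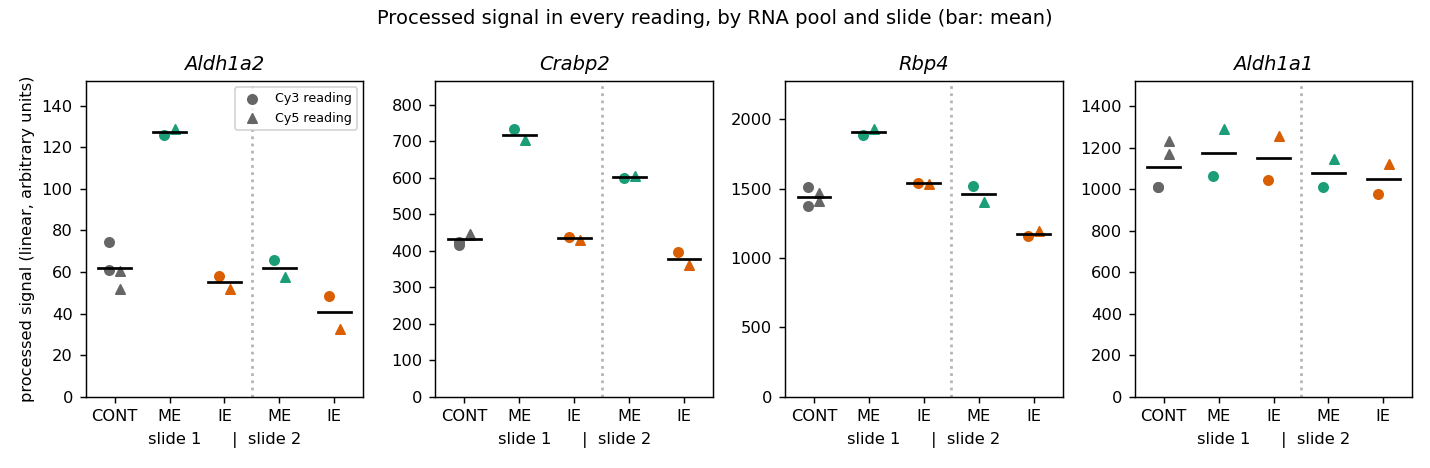
Processed signal (linear, arbitrary units, axes from 0) of Aldh1a2, Crabp2, Rbp4 and Aldh1a1 in every reading, by RNA pool and slide, with circles for Cy3, triangles for Cy5 and a bar for the mean. ME readings of the first 3 genes lie above the CONT and IE readings of the same slide, whereas Aldh1a1 separates by dye.

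Crabp2 encodes a binding protein known to deliver retinoic acid to nuclear receptors. Its processed signal on slide 1 was 415, 425, 444 and 446 in CONT, 704 and 733 in ME, and 430 and 439 in IE. The ME readings were apart from all others, and IE lay inside the CONT range. The log2 ratio of ME to CONT was 0.76 (p of 0.000418) and 0.72 (p of 0.000841), a mean of 0.74 ± 0.03 or 1.67-fold, rank 35 from the top, and that of IE to CONT was 0.02 and -0.02.

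On slide 2, Crabp2 read 599.9 and 605 in ME and 361 and 396 in IE. The log2 ratio of IE to ME was -0.73 (p of 0.00069) and -0.61 (p of 0.00408), a mean of -0.67 ± 0.09 or 0.628-fold, and the probe was called. The value reached through CONT on slide 1 was -0.74 (SE 0.03). Its signal was 4.84 to 23.5 times the local background. The ratio of ME to CONT was 0.60 with normexp and 0.64 without background subtraction, and it was called with the latter setting and not with the former. In IE vs ME neither setting called it, at -0.61 and -0.57.

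Crabp1, the related binding protein, read 92.2 to 120 over all 12 readings and was not called. Its mean log2 ratios were 0.06 ± 0.09 in ME vs CONT, -0.12 ± 0.12 in IE vs CONT and -0.13 ± 0.29 in IE vs ME. Its probe spans 4309 bases of rn3 chromosome 8 and so crosses an exon junction. The difference between Crabp1 and Crabp2 was not tested.

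Rbp4 was above CONT on both arrays of ME and below the call limit. On slide 1 it read 1376, 1410, 1469 and 1512 in CONT, 1889 and 1930 in ME, and 1536 and 1545 in IE. The readings of the 3 pools did not overlap, which is a description and carries no test. The mean log2 ratio was 0.36 ± 0.0075 in ME vs CONT (p of 0.0882 and 0.0792), which lies at the 99.2 percentile of probes well above background. In IE vs CONT the mean was 0.15 ± 0.02 (p of 0.437 and 0.521). On slide 2 it read 1403 and 1518 in ME against 1158 and 1196 in IE, a mean log2 ratio of -0.31 ± 0.05. The order of its levels was ME, IE, CONT on slide 1, and ME above IE on slide 2.

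Aldh1a1, another retinaldehyde dehydrogenase, did not separate the groups. It read 1009 to 1232 in CONT, 1061 and 1288 in ME, and 1043 and 1258 in IE on slide 1, with each Cy5 reading above each Cy3 reading. Its mean log2 ratios were 0.11 ± 0.34, 0.04 ± 0.39 and -0.04 ± 0.27 for ME and IE against CONT and for IE vs ME, with opposite signs on the 2 arrays of each pair. The dye thus shifted its readings more than the group did.

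**Figure D2:**
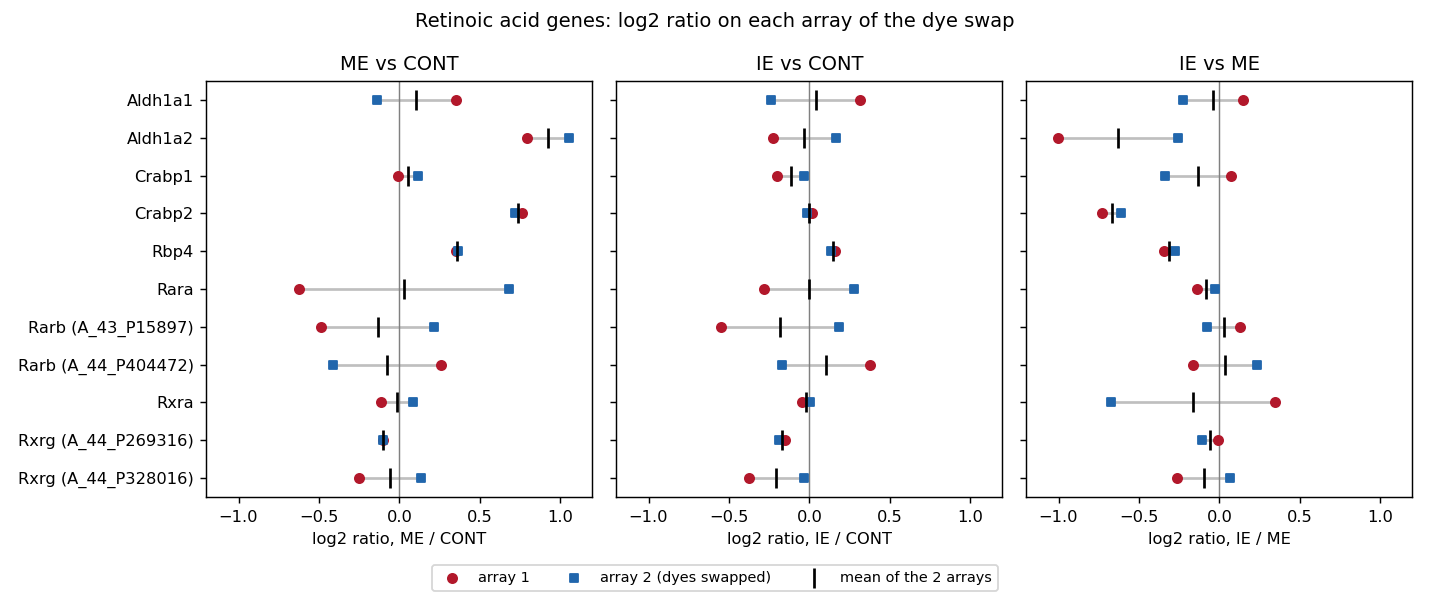
Log2 ratio of each of the 11 probes on array 1 (circle) and array 2 (square, dyes swapped) of each comparison, with the mean of the pair as a vertical mark. Aldh1a2, Crabp2 and Rbp4 lie above 0 on both arrays in ME vs CONT and below 0 on both in IE vs ME, while Aldh1a1, Rara and Rarb lie on opposite sides of 0 in ME vs CONT.

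The receptors had no call in any comparison. Rara had mean log2 ratios of 0.03 ± 0.92, -0.0024 ± 0.39 and -0.08 ± 0.08 for ME and IE against CONT and for IE vs ME. In ME vs CONT its arrays gave -0.62 and 0.68, with Cy3 the brighter dye on both, and this spread lies at the 99.2 percentile of all probes well above background. The probe read 22.3 to 46.0, at most 2.55 times the local background, and on slide 2 only 2 of its 4 readings were well above background.

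Rarb, which is itself a known target gene of retinoic acid, was read by 2 probes. Probe A_43_P15897 had mean log2 ratios of -0.14 ± 0.50, -0.18 ± 0.52 and 0.03 ± 0.15 for ME and IE against CONT and for IE vs ME, and was well above background in 9 of 12 readings. Probe A_44_P404472 had -0.08 ± 0.47, 0.10 ± 0.39 and 0.04 ± 0.28, and was well above background in all 12. The sign differed between the arrays of every pair for both probes.

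Rxra gave -0.01 ± 0.14 and -0.02 ± 0.03 against CONT in ME and IE, and 0.35 and -0.67 on the arrays of IE vs ME, a mean of -0.16 ± 0.72. Rxrg was brighter at probe A_44_P269316, which read 1899.7, 1946, 1985 and 2002 in CONT, 1767 and 1853 in ME and 1751 and 1757 in IE. Readings of both exercise pools lay below those of CONT on slide 1 without overlap, by small amounts: the mean log2 ratio was -0.10 ± 0.0037 in ME and -0.17 ± 0.03 in IE (p of 0.357 to 0.628 over the 4 arrays). Nothing is read from this separation. The second Rxrg probe, A_44_P328016, gave -0.06 ± 0.27 in ME and -0.21 ± 0.24 in IE, and only in IE did its arrays have the same sign.

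**Figure D3:**
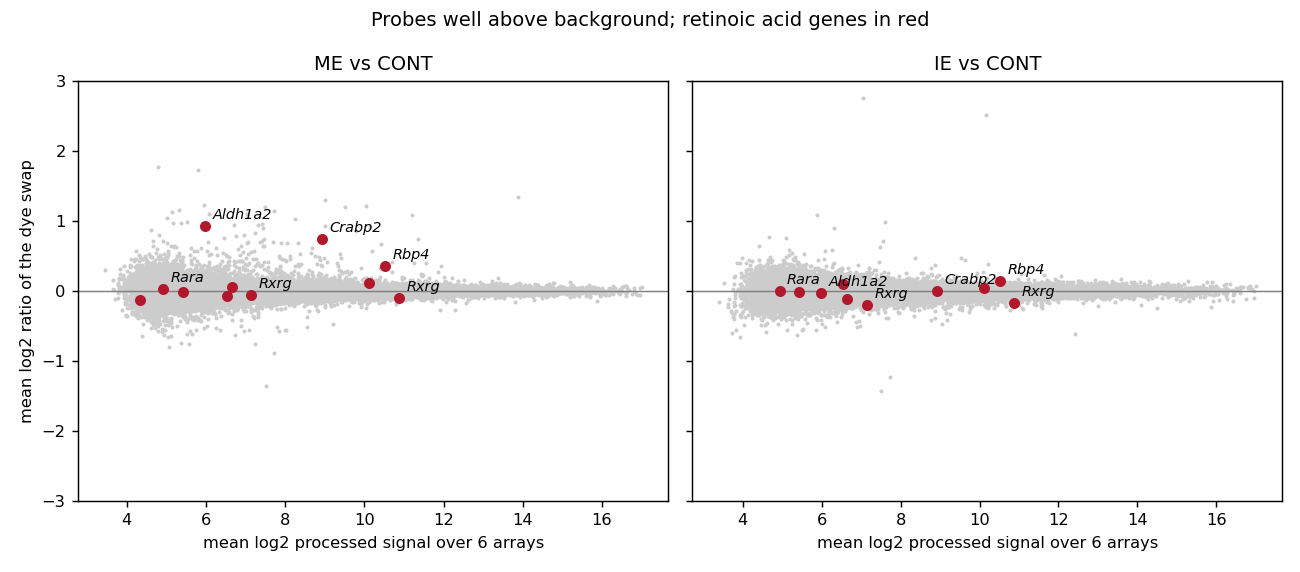
Mean log2 ratio of the dye swap against mean log2 processed signal over the 6 arrays, for probes well above background on both arrays of a pair (grey), with the retinoic acid genes in red. In ME vs CONT, Aldh1a2 (0.92), Crabp2 (0.74) and Rbp4 (0.36) lie above the bulk of probes of like signal, and in IE vs CONT Aldh1a2 (-0.03) and Crabp2 (-0.0002) lie near 0.

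Other retinoid genes were taken from a list of 56 names, 44 of which were found (61 probes, 37 of them well above background in all 12 readings). In each comparison 1 of these probes was called, and it was Ttr each time, always upward. Over all probes the called shares were 0.122% in ME vs CONT, 0.0293% in IE vs CONT and 0.0731% in IE vs ME. Ttr encodes transthyretin, the plasma partner of Rbp4 and a product of choroid plexus epithelium. Its mean log2 ratio was 0.91 ± 0.24 in ME vs CONT, 2.51 ± 0.35 in IE vs CONT and 1.92 ± 0.07 in IE vs ME. Ttr was thus highest in IE, whereas Rbp4 was highest in ME.

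The retinoic acid-degrading enzymes Cyp26a1 and Cyp26b1 had mean log2 ratios of 0.08 ± 0.76 and 0.28 ± 0.43 in ME vs CONT and 0.10 ± 0.27 and 0.11 ± 0.48 in IE vs CONT. The 17 probes of other synthesis genes had no call, with a median of -0.0067 over the 6 well above background in ME vs CONT, and Rdh10, which oxidizes retinol, gave 0.05 ± 0.13. Of the 9 probes of known target genes none was called, and their median was 0.0016 in ME vs CONT and -0.0092 in IE vs CONT over the 5 well above background. The lowest ratios among pathway probes well above background in all readings were those of the coregulator Nrip1 in ME vs CONT (-0.23 ± 0.58), the orphan receptor Nr2f2 in IE vs CONT (-0.30 ± 0.06) and Rarres2, a retinoid-responsive chemokine, in IE vs ME (-0.23 ± 0.27). No synthesis, degradation, receptor or target probe on this list was called in ME or IE against CONT. Of all probes, 0.122% were called in ME vs CONT and 0.0293% in IE vs CONT, so nothing is read from that absence.

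Markers of meninges moved with Aldh1a2 and Crabp2. The marker lists used here were chosen, as the retinoic acid genes were, with earlier results of these data known. That lists and genes moved together is thus a description and carries no test. Of a list of 18 meningeal names, 15 were found (20 probes, 18 of them well above background in all 12 readings), and neither Aldh1a2 nor Crabp2 is on that list. In ME vs CONT 12 of the 20 probes were called, all up, against 0.122% of all probes. Of the 19 well above background, 18 were higher on both arrays, and the median log2 ratio of the 19 was 0.90. In IE vs CONT none was called, against 0.0293% of all probes, and the median was -0.01. In IE vs ME 11 were called, all down, against 0.0731% of all probes, with a median of -0.91. The summed processed signal of the list was 42990 to 45772 in ME against 20230 to 20567 in CONT on the same arrays, 19021 to 19400 in IE against 19560 to 20377 in CONT, and 18335 to 18868 in IE against 40644 to 47951 in ME on slide 2.

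Examples of these markers in ME vs CONT were Col3a1 (1.15 ± 0.14) and Col1a1, fibrillar collagens, the latter at 1.19 ± 0.05 on the called probe and 0.24 ± 0.10 and 0.13 ± 0.07 on 2 others that were not called, Ogn (1.31 ± 0.14 and 1.20 ± 0.08 at its 2 probes), a small proteoglycan, and Ptgds (1.34 ± 0.08), a prostaglandin synthase. Genes of the list without a call in ME vs CONT were Mgp (0.41 ± 0.13), Dcn (0.17 ± 0.11), Lum (0.07 ± 0.02) and Slc47a1 (0.03 ± 0.03). Cyp1b1 was not called either, at 0.06 ± 0.25 and -0.18 ± 0.25 on its 2 probes. In RNA of whole tissue, more cells of a type and more RNA per cell cannot be told apart. The part of these cells in the ratios of Aldh1a2, Crabp2 and Rbp4 was not tested.

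Markers of choroid plexus, which also produces Ttr, followed another order. Of 17 probes (6 of them well above background in all 12 readings), 3 were called up in ME vs CONT, against 0.122% of all probes. These were Ttr, Sostdc1 and Kcnj13. In IE vs CONT 4 were called up, the same 3 and Otx2, against 0.0293% of all probes. Kcnj13 was not well above background in all readings of IE vs CONT, and it gave -0.12 ± 0.42 in IE vs ME. The summed signal, which includes Ttr, was 3465 to 3992 in ME against 2827 to 3185 in CONT. For IE it was 6623 to 7603 against 3159 to 3763 in CONT. The part of choroid plexus cells in the ratios of Ttr and Rbp4 was not tested. The striatum list (12 probes) had no call in any comparison. Of all probes, 0.122, 0.0293 and 0.0731% were called for ME and IE against CONT and for IE vs ME. Nothing is read from the lack of a striatum call.

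Of the cerebellum list (5 probes), Gabra6, a subunit typical of cerebellar granule cells, was called up in ME vs CONT (2.78 ± 0.19, not well above background in all readings). The other 4 probes were well above background and higher on both arrays in ME vs CONT without a call, among them Car8 (0.54 ± 0.38) and Pcp2 (0.31 ± 0.14), genes of Purkinje cells. In IE vs CONT these 2 gave -0.02 ± 0.29 and 0.02 ± 0.05, and in IE vs ME -0.38 ± 0.96 and -0.56 ± 0.05. The summed signal of the list was 2241 to 2281 in ME against 1980 to 2137 in CONT, and 2020 to 2105 in IE against 2053 to 2148 in CONT. The part of such cells in the ratios of Aldh1a2 and Crabp2 was not tested.

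**Figure D4:**
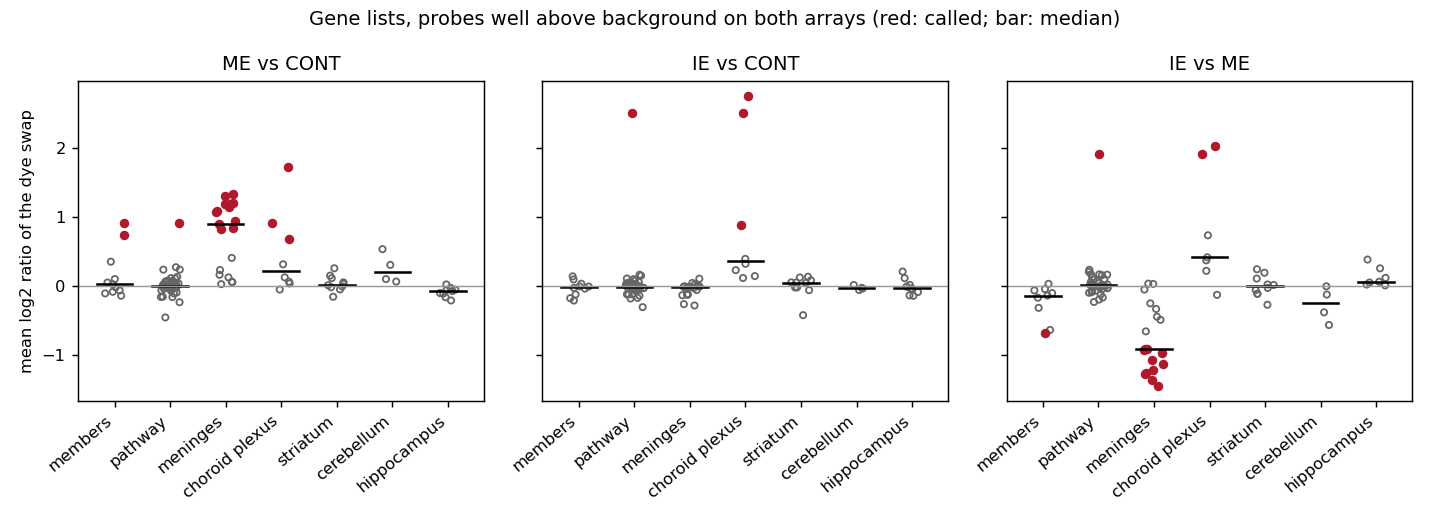
Mean log2 ratio of the dye swap for the probes of each gene list well above background on both arrays, in the 3 comparisons, with called probes in red and the median as a bar (members: the 11 probes described here). In ME vs CONT the median of the meninges list is 0.90 and that of the hippocampus list -0.07, and Aldh1a2 and Crabp2 lie in the range of the meninges probes. That range is wide (0.03 to 1.34) and also holds Rbp4 (0.36), Aldh1a1 (0.11) and Crabp1 (0.06).

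The genes whose ratios over the 6 arrays were most like those of Crabp2 were found by Euclidean distance in log2 ratio among 24719 probes well above background in all readings. They were the gene the array names MGC109519 (Tpm2 in RefSeq, distance 0.152), Pcolce (0.157), Ch25h (0.214), Slc13a3 (0.245) and Xtrp3 (Slc6a20a in RefSeq, 0.293). Their mean log2 ratios ran, in that order, at 0.68, 0.69, 0.80, 0.74 and 0.70 in ME vs CONT, with IE vs CONT at 0.01, -0.07, -0.0084, -0.01 and 0.03. These genes were selected on the same ratios, so their likeness to Crabp2 follows from the selection and carries no test.

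For Aldh1a2 the nearest were Cpz (0.472), another MGC109519 probe (0.558), RGD1307559 (0.583), Cp (0.602) and Tagln (0.607). Crabp2 stood at rank 9 from Aldh1a2, and Aldh1a2 at rank 38 from Crabp2, at a distance of 0.637 from each other. Both were chosen with these ratios known, so the ranks carry no test. The larger distances around Aldh1a2 go with its larger spread between arrays, 0.28 in IE vs CONT and 0.53 in IE vs ME, against 0.02 and 0.09 for Crabp2.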

How the data were processed

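RNA of 5 rats per group was pooled by the authors, and 6 2-color Agilent arrays were scanned and extracted with Feature Extraction (9.5.3.1 on slide 1, 11.0.1.1 on slide 2). For every spot the authors deposited a log10 ratio of Cy5 to Cy3, background-subtracted and dye-normalized in that software. They, the authors, also deposited its p-value, which an error model of the software derives within 1 array. Deposited signals are intensity values per spot, linear, both raw and processed.

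Control features (1639 of 45018) and outlier spots were left out, spots of a probe were averaged, and ratios were turned to ME over CONT, IE over CONT and IE over ME on the log2 scale. Labels call the arrays of a dye swap separate pools, while the methods describe 1 pool per group, and the latter was followed. The precision is limited by the number of arrays. Of 41012 probes, 10726 were also named through RefSeq.

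Members and lists were chosen with earlier results of these data known. The text names every probe of the members, called genes and extremes of the pathway list, called markers (examples given), meningeal markers without a call, and the 5 genes nearest in pattern. Alternatives were other call rules, a filter on dim probes, normexp (offset 50) and loess (limma 3.58.1, R 4.3.3), no background subtraction, the authors' value table, outliers kept, each array alone and a joint fit of the arrays. Calls with normexp and without background subtraction combined the new ratios with the unchanged p-values of the scanner software. The call rule was tested on simulated data.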

Additional observations from a re-analysis of the deposited data

How the results depend on the processing

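The number of retinoic acid probes called in ME vs CONT (2) was 0 with normexp and loess (0.037% of all probes) and 1, Crabp2, without background subtraction (0.049%). In IE vs ME (1), it was 0 under both of these settings (0.054 and 0.044% of all probes). With the mean fold of the pair and no p threshold it was 2 (8.80% of all probes). When each array was left out it was between 1 and 2 (7.73 and 7.87% of all probes), since Aldh1a2 passed on the first array alone. The count of 0 in IE vs CONT was 0 under every alternative run. Among the other retinoid genes (1 called in each comparison), ME vs CONT gave 2 without the p threshold (0.985% of all probes) and 3 of 61 by mean fold (6.28%), IE vs CONT gave 3 by mean fold (5.41%), and IE vs ME gave 2 (1.06%) and 6 (8.80%), so nothing is read from these counts. Of 99 probe ratios under normexp, no background subtraction and the joint fit, 83 moved by less than the SD between arrays and 16 by more, and no called value changed sign. Among the 83 was Aldh1a2 in IE vs ME, whose SD between arrays was 0.53. Its ratio went from -0.63 to -0.18 with normexp and -0.14 without background subtraction. The joint fit gave 0.81 for Aldh1a2 and 0.72 for Crabp2 in ME vs CONT. The cause was not tested. No paired analysis was possible because RNA was pooled into 1 sample per group. Probes near background, such as Rara and Rarb A_43_P15897, limit what these arrays can show of the receptors.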
